A study of Homo sapiens with 4 samples.

Results

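Annexins are a family of proteins that settle on the inner face of cell membranes when calcium rises. A conserved core of repeats binds calcium and negatively charged phospholipids at the same time, and a variable N-terminal tail recruits partners such as S100 proteins. Through this the family takes part in membrane repair, vesicle traffic, the surface activation of plasminogen and the restraint of inflammation. The 10 annexin genes ANXA1 to ANXA7, ANXA9, ANXA10 and ANXA11 were taken by symbol out of 18417 genes that have a probe set with exactly 1 gene symbol. They were selected on their symbols with the log2 differences of the hairpin arrays from the scrambled array already known, so every such difference given for them is a description and carries no test.

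DAOY, an established human medulloblastoma cell line, received lentivirus for 16 to 24 hours. The virus carried a short hairpin RNA, which lowers the transcript it matches. The 3 knockdown samples, labelled with the genotype ZFX KD, received the hairpins H2, H3 and H4 against ZFX, an X-linked transcription factor of the zinc finger type, and the 1 control sample received the scrambled hairpin SCR, which has no target. All 4 samples recovered for 48 hours, were placed in puromycin at 2 ug/mL, which kills cells without the vector, and gave RNA after about 48 hours of selection. From each, 250 ng of total RNA went to 1 array. No hairpin and no control has a second array, so the spread given is that between the 3 hairpins, and the error of the scrambled array is unknown. Each sample is RNA of a bulk culture, in which fewer cells of one kind and less RNA per cell cannot be told apart.

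On the arrays ZFX itself read 745 with H2, 749.6 with H3 and 996 with H4, against 1429.6 with the scrambled hairpin, that is 52.1%, 52.4% and 69.6% of the scrambled value. Between arrays, r of the log2 intensities was 0.992 to 0.996 (a correlation over probe sets, which are not replicates), and no pair of arrays was a copy. Of 11 neural progenitor markers measured, 8 lay above the intensity filter (a mean log2 intensity of 6.78), among them ZIC1, ZIC2, PTCH1 and VIM, while NES, GLI1 and MAP2 lay under it. Of 9 leukocyte markers 5 lay above it, with PTPRC, CD3E, ITGAM and MPO under it, and of 6 endothelial markers 2 did, TIE1 and TEK. EPCAM and CDH1, which define epithelia, lay under it too, with the keratins above. Over all 13813 genes above the filter, limma's moderated test of the 3 knockdown arrays against the scrambled array called 0 genes at an adjusted p of 0.05 (0% called, smallest adjusted p = 0.9998). It gave 446 genes (3.23%) an unadjusted p under 0.05, and the same fit without an intensity trend also called 0.

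Among the 10 annexin genes taken here ANXA3 stood apart in size. It read 39.2% of its scrambled level on average. No other of these genes above the filter went below 73.9% or above 118% of its scrambled value with any hairpin. Probe sets shared by ANXA8 and ANXA8L1, given further on, did go lower. Of the 10, ANXA6 had the next largest mean difference, and ANXA1 lay close to its scrambled value with H3 and H4. For these and ANXA3, the stretches of 250 bases before the start of transcription are shown. They are RefSeq sequences on GRCh38.p14, written 5′ to 3′ in the direction of the gene. Capitals mark each CG pair and the letters TATAAA. ANXA3 lies on the plus strand (chr4:78551520-78551769), ANXA6 on the minus strand (chr5:151157780-151158029, the first of 2 starts in the table) and ANXA1 on the plus strand (chr9:73151615-73151864).
ANXA3: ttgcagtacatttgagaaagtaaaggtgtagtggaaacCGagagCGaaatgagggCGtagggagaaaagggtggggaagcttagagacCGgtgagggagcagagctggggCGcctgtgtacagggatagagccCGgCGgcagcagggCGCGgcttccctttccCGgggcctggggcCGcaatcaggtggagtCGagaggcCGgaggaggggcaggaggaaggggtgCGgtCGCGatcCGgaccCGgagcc
ANXA6: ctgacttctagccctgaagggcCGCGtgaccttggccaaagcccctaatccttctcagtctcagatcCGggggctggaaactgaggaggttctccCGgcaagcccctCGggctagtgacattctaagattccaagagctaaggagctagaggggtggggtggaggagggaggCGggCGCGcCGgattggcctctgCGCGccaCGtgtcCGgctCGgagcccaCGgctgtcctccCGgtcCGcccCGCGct
ANXA1: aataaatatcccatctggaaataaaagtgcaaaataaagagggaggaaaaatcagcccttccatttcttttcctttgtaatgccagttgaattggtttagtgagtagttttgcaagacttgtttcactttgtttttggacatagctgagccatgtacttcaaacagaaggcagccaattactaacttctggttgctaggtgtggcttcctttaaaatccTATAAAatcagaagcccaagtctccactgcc
The ANXA3 stretch holds 18 CG pairs and 64% G or C, and that of ANXA6 holds 19 CG pairs and 65.6% G or C, with a median of 11 CG pairs and 58% G or C over 35116 such stretches in the table. ANXA1 has 0 CG pairs, as 6.06% of all stretches do, and 38.4% G or C. Its TATAAA begins 31 bases before the start. TATAAA, searched on both strands, was also found 31 bases before the start of ANXA2, 29 before that of ANXA10 and 61 before the first start of ANXA11, and in 10.7% of all stretches. AGGCCT, the core of the sequence motif known for ZFX and the same on both strands, was found in 1 of the 14 annexin stretches, 185 bases before the second start of ANXA4, and in 9.2% of all. The letters TGANTCA, the AP-1 motif, read the same way on both strands, were found in 1 annexin stretch, 127 bases before ANXA2, and in 6.57% of all. A match of letters is not a binding site, and their absence says nothing of a factor.

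ANXA3 is an annexin known from the granules and phagosomes of neutrophils and also made by other cell types. Its probe set (8095986) read 368 with H2, 618 with H3, 526 with H4 and 1256 with the scrambled hairpin. All 3 knockdown arrays lay below the scrambled array, as for 30.6% of all genes above the filter, with H2 lowest and H3 nearest to it. As shares of the scrambled value these are 29.3%, 49.2% and 41.9%, for a mean log2 difference of -1.35 ± 0.38 (SD, n = 3). The smallest of the 3 differences, -1.02 with H3, was larger than the spread of 0.75 between the lowest and the highest knockdown array on the log2 scale. That spread leaves out the error of the scrambled array, which is unknown. The difference between H2 and H3 was -0.75, that between H2 and H4 was -0.52, and that between H3 and H4 was 0.23.

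With every hairpin, 1 annexin, ANXA3, was 1.5-fold or more under its scrambled value, where 0.311% of all 13813 genes (43) were. For single hairpins it was again the only 1 of the 10 annexin genes past 1.5-fold in that direction. The probe sets that carry both ANXA8 and ANXA8L1 were past it too with H2 and H3 (7933312 at 35.5% and 62.9%). The background was 5.61% of genes with H2, 1.14% with H3 and 2.17% with H4. No annexin was 1.5-fold above with every hairpin, where 0.0507% of genes were, nor with any single hairpin, where the background was 0.992% (H2), 0.528% (H3) and 0.608% (H4). By mean difference ANXA3 was number 4 from the lowest of the 13813 genes, and by single hairpins number 14 with H2, 18 with H3 and 15 with H4. Since this contrast was known when the gene was chosen, these ranks describe it and test nothing.

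**Figure D1:**
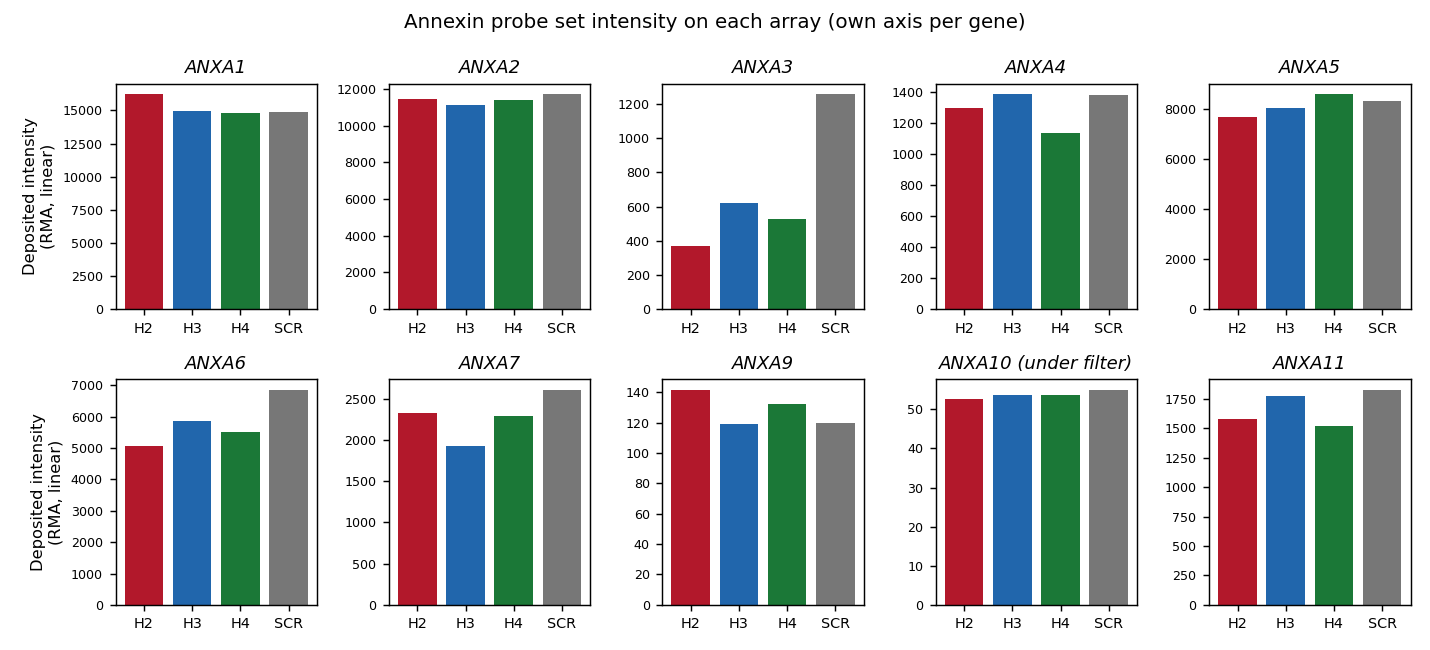
Deposited intensity (linear scale) of each annexin's probe set with the hairpins H2, H3 and H4 and the scrambled hairpin (SCR), 1 array per bar, with an axis of its own for each gene. ANXA3 reads 368 to 618 on the knockdown arrays and 1256 on the scrambled array, while every knockdown bar of the other 9 genes lies between 73.9% and 118% of its scrambled bar.

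ANXA6, the annexin with a duplicated core, which gathers at endosomes and cholesterol-rich membranes, came next. It read 5063 with H2, 5864 with H3, 5523 with H4 and 6848 with the scrambled hairpin, again lowest with H2 and with all knockdown arrays below. The mean log2 difference was -0.32 ± 0.11 (SD, n = 3), or 79.9% of the scrambled level. The nearest knockdown array lay 0.22 below the scrambled one, and the knockdown arrays spanned 0.21, so the gap and the spread were of like size.

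ANXA7, known as synexin and for promoting fusion of secretory vesicles, had another order of hairpins. It read 2329.6 with H2, 1924 with H3, 2283 with H4 and 2602 with the scrambled hairpin, so H3 was lowest here, where it was nearest to scrambled for ANXA3 and ANXA6. The mean log2 difference was -0.26 ± 0.15 (SD, n = 3), or 83.4% of the scrambled level. The knockdown arrays spanned 0.28, more than the 0.16 by which the nearest of them lay below.

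ANXA11, which links RNA granules to lysosomes, read 1578 with H2, 1772 with H3, 1523 with H4 and 1825 with the scrambled hairpin. H3 almost reached the scrambled value. Its mean log2 difference was -0.17 ± 0.11 (SD, n = 3), and the gap of 0.042 to the nearest array was well inside the spread of 0.22 between hairpins.

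ANXA4, a calcium-dependent binder of secretory and epithelial membranes, lay on both sides of its scrambled value. It read 1298 with H2, 1387 with H3 and 1138 with H4, against 1384 with the scrambled hairpin. H4 lay furthest from the scrambled value, at 82.2% of it, and the mean log2 difference over the 3 hairpins was -0.12 ± 0.15 (SD, n = 3).

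ANXA2, ANXA5 and ANXA1 also act at the outer cell surface, and all 3 lay near their scrambled values. ANXA2, which forms a complex with S100A10 and assembles plasminogen activator there, read 11429.6 with H2, 11098 with H3, 11393 with H4 and 11700.1 with the scrambled hairpin. All 3 arrays lay below by little, at 94.9% to 97.7%, and with each array centred on its median 1 of them lay above (a log2 difference of 0.0013). ANXA5, the phosphatidylserine binder used as a probe for dying cells, read 7664.5 with H2, 8029.5 with H3 and 8568 with H4, against 8308 with the scrambled hairpin. Its mean log2 difference of -0.04 ± 0.081 (SD, n = 3) was inside the spread between hairpins. ANXA1, a glucocorticoid-induced restrainer of inflammation and ligand of formyl peptide receptors, read 16212 with H2, 14967 with H3, 14803 with H4 and 14876 with the scrambled hairpin. H2 lay furthest from the scrambled value, at 109% of it. Its mean log2 difference of 0.042 ± 0.072 (SD, n = 3) was inside the spread too, and with arrays centred or quantile normalized all 3 hairpins lay above.

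Both remaining members have lost calcium-binding residues of the core. ANXA9 read 141 with H2, 119 with H3, 132 with H4 and 119.8 with the scrambled hairpin, a mean log2 difference of 0.12 ± 0.12 (SD, n = 3). H2 and H4 lay above and H3 level with the scrambled array, and H3 too lay above with arrays centred, quantile normalized or put through cyclic loess. Its mean log2 intensity was just above the filter, so these values are dim. ANXA10, known from the stomach, was under the filter, at 52.7, 53.7, 53.7 and 54.9 with H2, H3, H4 and the scrambled hairpin, and is left out of the counts.

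**Figure D2:**
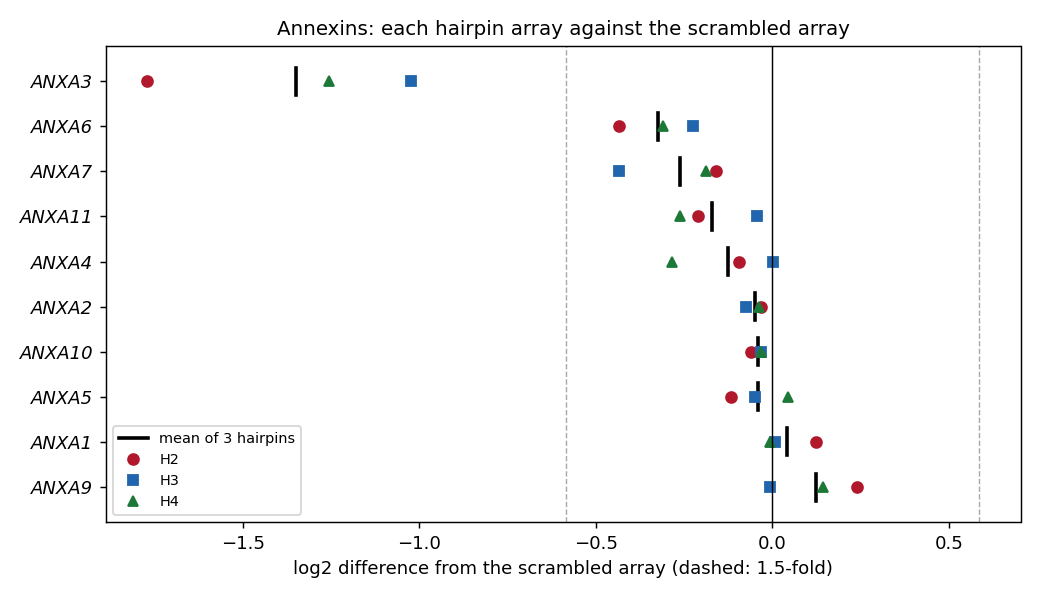
Log2 difference of each hairpin array (H2, H3, H4) from the scrambled array for the 10 annexins, ordered by their mean (black bar), with dashed lines at 1.5-fold. ANXA3 lies left of the lower line with every hairpin, from -1.77 to -1.02, and all points of the other annexins lie between the lines.

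Taking the 9 annexins above the filter, 5 lay below the scrambled array with all 3 hairpins (ANXA2, ANXA3, ANXA6, ANXA7 and ANXA11) and 0 lay above with all 3. Over all genes 30.6% lay below and 16.9% above. This split rests on the scaling. With each array centred on its median 4 annexins lay below and 2 above, where 23.3% and 23.6% of genes did, with quantile normalization 5 and 2, where 25% and 22% did, and with cyclic loess 5 and 1, where 26.5% and 20.5% did. ANXA3, ANXA6, ANXA7 and ANXA11 were below with every hairpin under each of these scalings. With any 1 hairpin 7 of the 9 annexins lay below, beside 56% of genes with H2, 55.5% with H3 and 61% with H4. The median of the 9 mean log2 differences was -0.12, beside -0.035 over all genes, and -0.087 over the 8 without ANXA3. By hairpin (H2, H3, H4) it was -0.12, -0.049 and -0.19, where all genes had -0.03, -0.021 and -0.046.

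**Figure D3:**
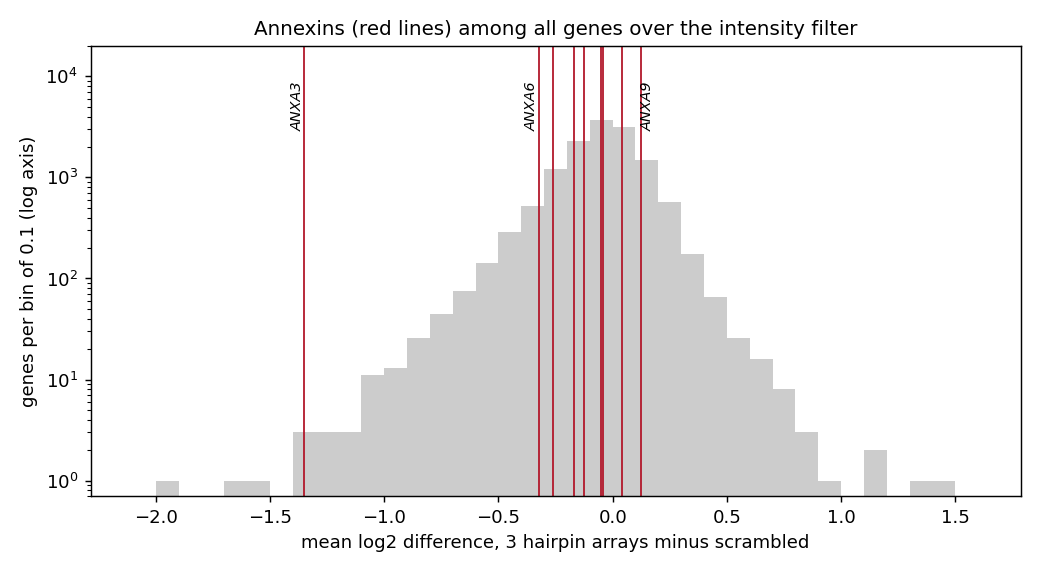
Histogram of the mean log2 difference between the 3 hairpin arrays and the scrambled array for 13813 genes, in bins of 0.1 with a log axis for the number of genes, and red lines at the 9 annexins above the filter. ANXA3 lies at -1.35 in the far lower tail, and the other 8 lie between -0.32 and 0.12. ANXA6 and ANXA7 are numbers 987 and 1525 from the lowest.

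Further annexin symbols in the annotation add a group that resembled ANXA3 in direction and, with H2 and H3, was also more than 1.5-fold below. Probe sets 7927307, 7927367 and 7933312 each carry the symbols ANXA8 and ANXA8L1, near-identical gene copies, so their signal can be given to neither. The first read 302 with H2, 367 with H3, 431 with H4 and 553 with the scrambled hairpin, and 7927367 gave nearly the same values, so the pair is not independent. Probe set 7933312 read 309.7, 548, 657 and 872 in that order, or 35.5%, 62.9% and 75.3% of scrambled. All 3 probe sets were below with every hairpin, H2 lowest and H4 nearest, with mean log2 differences of -0.61 ± 0.26, -0.61 ± 0.26 and -0.86 ± 0.57 (SD, n = 3). ANXA13, an annexin of the gut, was under the filter at 49.6 to 55.9 on the 4 arrays.

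The processed pseudogenes of ANXA2 closely resemble it in sequence, so their probes may read its transcript. ANXA2P2 stood, like ANXA2, near scrambled, at 100.6%, 94.6% and 100.8% with H2, H3 and H4. ANXA2P1 read 933 with H2, 669 with H3, 839 with H4 and 636 with the scrambled hairpin, above with all 3 (mean log2 difference 0.34 ± 0.24, SD, n = 3). ANXA2P3 lay on both sides, at 107%, 90.7% and 124%. One more probe set (8076374), which carries the symbols SNU13 and ANXA2 and belongs to neither alone, was at 75.7%, 104% and 103%.

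The genes whose 3 differences lay nearest to those of ANXA3, by Euclidean distance on the log2 scale over H2, H3 and H4, were TIE1, DIS3L, GBP5, CYRIA and LCP1. TIE1, a receptor known from endothelium, was at a distance of 0.37, with 286, 482 and 484 for H2, H3 and H4 and 909 for scrambled. DIS3L, a cytoplasmic exoribonuclease, was at 0.42 (225, 295, 229 and 581). GBP5, an interferon-induced GTPase, was at 0.51 (143, 300.2, 161 and 450.003), and so was CYRIA, a binder of the small GTPase RAC1 (139, 158, 213 and 417). LCP1, the actin bundler plastin of leukocytes, was at 0.53 (404, 755, 434 and 1139.8). As for ANXA3, H2 was the lowest array for each of these 5 genes, though for DIS3L only just below H4. They were picked for their likeness to ANXA3, so this is no separate result. H2 also had the largest share of all genes 1.5-fold or more below, 5.61%, beside 1.14% with H3 and 2.17% with H4. The likeness is over 3 differences from 1 shared scrambled array, so that array's error enters all of them alike.

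Since ANXA3 is known from leukocytes, and TIE1 and LCP1 are on the marker lists, all the marker lists are given beside it. The summed intensity of the 9 leukocyte markers measured was 3097, 5194 and 4168 with H2, H3 and H4 and 5139 with the scrambled hairpin. CD68 made up much of that sum, with 3253 with H3 and 2570.4 with the scrambled hairpin, and the median log2 difference of the 5 leukocyte markers above the filter was -0.47 (H2), -0.37 (H3) and -0.15 (H4). For the 6 endothelial markers the summed intensity was 962, 1428, 1461 and 2057, lower with all 3 hairpins. Most of that sum came from TIE1, already picked as nearest to ANXA3, and TEK. With the scrambled hairpin they read 909 and 774, and TEK read 367, 631 and 649 with H2, H3 and H4. The 6 epithelial markers summed to 9412, 9717, 8917 and 11535, also lower with all 3 hairpins. The 4 of them above the filter were each below with every hairpin, where 30.6% of all genes were. The 11 neural progenitor markers summed to 18517, 18652, 18633 and 18154, above scrambled with all 3 hairpins. PTPRC, carried by nearly all leukocytes, read 41.9 to 43.0 on every array, and the endothelial CDH5 read 84.0 to 92.7. PECAM1, another endothelial marker, read 83.4, 85.6 and 92.2 with H2, H3 and H4 and 125.9 with the scrambled hairpin. These 3 genes are under the filter, and no call of absence can be made from the files. The part of these genes in the ANXA3 values was not tested.

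**Figure D4:**
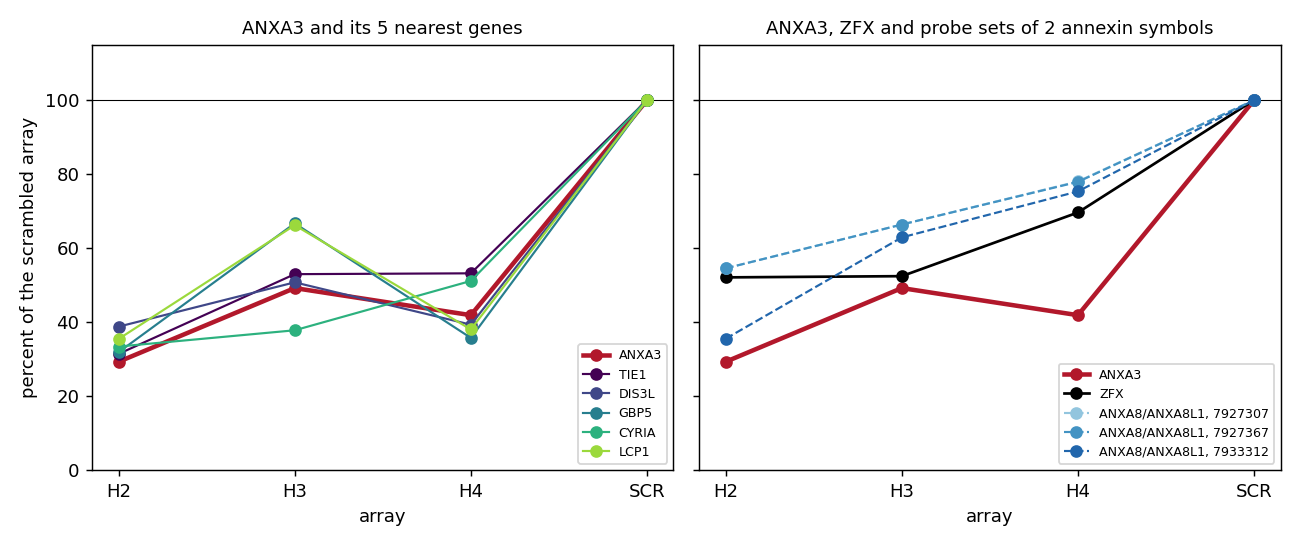
Percent of the scrambled array (SCR, set at 100) with H2, H3 and H4, for ANXA3 and its 5 nearest genes (left) and for ANXA3, ZFX and the 3 probe sets that carry both ANXA8 and ANXA8L1 (right). Lines join values of 1 probe set and stand for no order of arrays, and every knockdown value shown lies between 29.3% and 78%.

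ZFX and ANXA3 did not rank the hairpins alike. ZFX was nearly level with H2 and H3 (52.1% and 52.4%) and highest with H4 (69.6%), whereas ANXA3 was lowest with H2 (29.3%), then H4 (41.9%), then H3 (49.2%). With 3 hairpins no relation between them can be tested.

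Genes that act with annexins were followed in 6 lists, 78 genes in all, of which 69 had a probe set with 1 symbol and 57 lay above the filter. Of the 57, 22 were below the scrambled array with all 3 hairpins and 4 above, beside 30.6% and 16.9% of all genes. The same shares of all genes apply to the count of each list below. All these counts are for values as deposited, where the scrambled array had the highest median (232), and were not repeated with other scalings. They include genes below by little, such as ENO1 (98.5%, 98.1% and 98.4% with H2, H3 and H4) and S100A9 (97.9%, 99.7% and 98.9%). For the 57 genes the median mean log2 difference was -0.11, beside -0.035 over all genes. None was 1.5-fold away with every hairpin, and limma called 0 of them.

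S100 proteins are small calcium sensors, and several bind the tails of annexins. Of 11 above the filter, AHNAK included, 3 were below and 1 above with all 3 hairpins (median -0.077). S100A10, given here as the partner of ANXA2, read 12866, 13321 and 14477 with H2, H3 and H4 and 12862 with the scrambled hairpin. Like ANXA2 it was close to scrambled, level with H2 and at 103.6% and 112.6% with H3 and H4. S100A11, given here as the partner of ANXA1, stood at 97.7%, 102.6% and 103.9%. The largest mean differences were those of S100A3, with log2 differences of -0.93, -0.43 and 0.43, and S100A6, with -0.44, -0.13 and 0.04, and both changed side between hairpins.

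ANXA2 and S100A10 serve plasmin formation at the cell surface, and there both activators read lower than scrambled. PLAU, urokinase, read 2373 with H2, 2197 with H3, 1679.7 with H4 and 3384 with the scrambled hairpin (mean log2 difference -0.72 ± 0.26, SD, n = 3). PLAT, tissue plasminogen activator, read 2768, 4315, 2543 and 4803 in that order (-0.62 ± 0.41), with H3 close to scrambled. PLAU missed 1.5-fold with H2 alone, at 70.1%, and PLAT with H3 alone, at 89.8%. Of the 6 genes above the filter 3 were below and 0 above with all 3 hairpins, with a median of -0.062.

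Of 10 genes of plasma membrane repair, 3 were below with every hairpin and 0 above (median -0.043). CAVIN1, a coat protein of caveolae, read 666, 761 and 726 with H2, H3 and H4 and 1003.5 with the scrambled hairpin, a mean log2 difference of -0.49 ± 0.097 (SD, n = 3). CAPN1, the calcium-activated protease calpain, was at 70.6%, 89.8% and 69.8%. DYSF, the repair protein dysferlin, was under the filter, at 71.6%, 78.5% and 69.4% of a dim scrambled value.

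Of 7 genes around formyl peptide receptors and eicosanoid release, where ANXA1 acts, 3 were below and 1 above with all hairpins (median -0.081). TSC22D3, a glucocorticoid-induced gene, read 649, 640.4 and 605 against 798 with the scrambled hairpin (mean log2 difference -0.34 ± 0.054, SD, n = 3); ANXA1, itself glucocorticoid-induced, was at 109%, 100.6% and 99.5%. PLA2G4A, the cytosolic phospholipase A2, was above with all 3, at 100.8%, 115.9% and 131.2%. Of the receptors FPR2 and FPR3 were under the filter, and FPR1 was at 84.5%, 87.3% and 114.7%.

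Phosphatidylserine, which ANXA5 binds, is also the signal read by receptors for dying cells. In that list of 8 genes 5 were below and 0 above with every hairpin (median -0.20), beside 30.6% and 16.9% of all genes. Of the 5, MFGE8 and ATP11A were below by almost nothing with H3, at 99.97% and 98.7% of scrambled. AXL, a receptor tyrosine kinase that reads it through GAS6, stood at 2921, 3075 and 2828 with H2, H3 and H4 and 3868 with the scrambled hairpin (mean log2 difference -0.40 ± 0.061, SD, n = 3). MERTK, its relative, had log2 differences of -0.85, -0.26 and -0.18 and rested mainly on H2.

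Among 15 other calcium-linked genes of membranes, 5 were below and 2 above with every hairpin (median -0.14). PRKCB, protein kinase C beta, read 260 with H2, 271 with H3, 293 with H4 and 382 with the scrambled hairpin (mean log2 difference -0.48 ± 0.089, SD, n = 3). ITPR3, a calcium release channel of internal stores, stood at 63.2%, 89.5% and 76.3%.

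**Figure D5:**
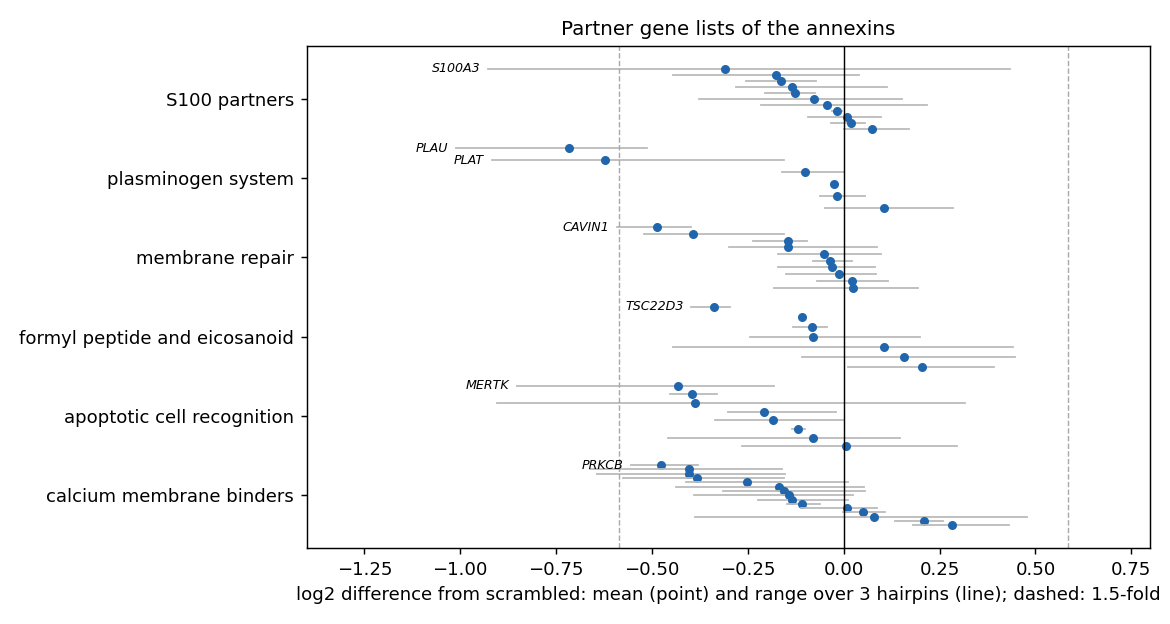
Mean log2 difference from the scrambled array (point) and range over the 3 hairpins (line) for the 57 partner genes above the filter, by list, with dashed lines at 1.5-fold. PLAU and PLAT lie furthest left, at -0.72 and -0.62, and no line lies wholly outside 1.5-fold.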

How the data were processed

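RNA of 4 DAOY samples was labelled with biotin and hybridised to 1 whole-transcript array each. The table gives an intensity for every probe set. These intensities are the authors' RMA output, per the submitters' processing notes; the version, settings and genome build were not given in the sources used here. RMA matches the probe intensities of the arrays to each other before it summarises them, so a change of total RNA per cell would not be seen; the summarised values still differed in their medians (226 to 232). Values were on a linear scale and were turned into log2. Without detection calls or scan dates, no batch was examined. The number of arrays limits the precision.

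Of 33297 probe sets, 19460 carry exactly 1 symbol in the platform annotation, and 1754 carry several. The former stand for 18417 genes, each read from the probe set with the highest mean. Genes with a mean log2 intensity under the 25th percentile, 6.78, were left out, and 13813 remained. Each hairpin array was set against the scrambled array, with no p-value, and a fold of 1.5 was used to count. All genes were also fitted with limma 3.58.1 in R 4.3.3 (lmFit, eBayes with an intensity trend, Benjamini-Hochberg adjustment), with 3 knockdown arrays against 1 scrambled array and 2 residual degrees of freedom. That fit was also run on simulated data, in which the scrambled array was given the spread of the hairpin arrays. This checked the mean size of the estimated change. It could not check the p-values, because the scrambled array's true error is unknown. The labels do not tell whether transductions were repeated. With 1 scrambled array, any p-value measures only the spread between the 3 hairpin arrays, and takes the scrambled array's unknown error to be like it.

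The annexins and the partner gene lists were chosen with earlier results of these arrays known. Named are the annexins, every other annexin symbol in the annotation, ZFX, the 2 members of each partner list with the largest mean difference, and the 5 genes nearest to the leading annexin. S100A10, S100A11, DYSF, the formyl peptide receptors and the marker genes are named outside that rule, for their role and after their values were seen. Tables and figures used pandas 2.3.3 and matplotlib 3.10.9 in Python 3.11.15.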

Additional observations from a re-analysis of the deposited data

How the results depend on the processing

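Other scalings (median centring, quantile, cyclic loess), filters, probe set rule, pseudocount of 16 and leaving out a hairpin were tried. ANXA3 was the 1 annexin gene of the 10 that lay 1.5-fold below with every hairpin in each case. This held at the lower and the higher fold threshold tried. The probe set rule, the lower threshold and leaving out a hairpin could not have dropped ANXA3. It has 1 probe set and passed 1.5-fold with all 3 hairpins. Its mean log2 difference without 1 hairpin ranged from -1.51 (without H3) to -1.14 (without H2). The count of annexins above the scrambled array with every hairpin moved from 0 to 2 with centring, 2 with quantile normalization and 1 with cyclic loess; those that moved were ANXA1 and ANXA9. As deposited, each missed by little with 1 hairpin, ANXA1 with H4 (log2 difference -0.0071) and ANXA9 with H3 (-0.0081). The cause was not tested. Leaving out a hairpin gave 0 to 1 annexins above and 5 to 6 below, where fewer arrays had to lie on one side, and a family median of -0.17 (without H3) to -0.083 (without H4). The count of partner genes 1.5-fold away with every hairpin was 0 to 1 in these runs, PLAU without H2 and PLAT without H3. Limma called 0 genes under every alternative. Of 311 values for named genes under the alternatives, 7 moved by more than the spread (SD) between hairpins. Of those lower or higher with every hairpin, 0 changed side. The filters and the probe set rule left these values unchanged. Leaving out 1 of 3 hairpins cannot move a mean by more than that spread, nor change such a side. All 7 came from the scalings. S100A11, on both sides as deposited, went from 0.02 to -0.027 with quantile normalization. The differences per hairpin do not involve the other hairpins, so leaving one out gives no new value for them. No paired analysis was possible, because there is 1 scrambled array and the labels give no pairs. ANXA9, ANXA10 and ANXA13 were dim, and no background level was used here to judge them.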

Other observations

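Another gene named for its link to ANXA2 is ANXA2R, which encodes a receptor for that annexin. It read 185 with H2, 193 with H3, 160.2 with H4 and 198 with the scrambled hairpin, below with all 3 and nearest with H3. ANXA2R-AS1, an antisense transcript at that locus, read 194, 191, 206 and 173 in the same order, above with all 3 (mean log2 difference 0.18 ± 0.056, SD, n = 3). ANXA2R-OT1, an overlapping transcript there, was at 111%, 109.7% and 90.9% and changed side with H4. Labels do not say how the array's probes separate these overlapping transcripts, so their values remain uncertain. None is an annexin by structure, and no test was made of them.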
